A study of Mus musculus with 2 samples.

Results

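Genes described as granule subtype genes of the dentate gyrus were followed in single-nucleus RNA-sequencing data from the mouse hippocampus. The 9 genes were Col6a1, Gm4128, Cdh7, Fbln2, Sema3e, Wnt9a, Kitl, Tspan18 and Onecut1, out of 32285 genes in the files. They were selected on their UMI counts in granule nuclei of these same libraries, as genes that differed between the libraries, so that difference is given as a description with no test. They were read in nuclei with at least 8 UMIs (unique molecular identifiers, each standing for 1 captured RNA molecule) over the granule markers Prox1, Glis3, Stxbp6, C1ql2 and Dsp, at least 1 UMI of Prox1 and at most 1 UMI of the inhibitory markers Gad1 and Gad2 together. The gate kept 452 of 17485 nuclei in the first library below and 435 of 12193 nuclei in the second.

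There were 2 libraries, each from 1 female and 1 male mouse aged 8 months whose hippocampal nuclei were pooled. The 5XFAD x MR1 KO library, called the KO library here, came from mice that carried the 5XFAD transgenes and lacked MR1. The 5XFAD library came from mice with the same transgenes and without the deletion. 5XFAD mice carry transgenes driven by a neuronal Thy1 promoter and develop amyloid plaques, and MR1 is an antigen-presenting molecule that mucosal-associated invariant T (MAIT) cells need in order to develop. Each genotype had 1 library, so genotype, the individual mice and the preparation cannot be told apart, there is no replicate error and no p-value can be given. Intervals below are 95% intervals that cover counting error only, and nuclei of 1 mouse are not replicates.

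Granule neurons receive the main cortical input of the hippocampus and send mossy fibres to CA3 pyramidal neurons. They are made throughout development and, in mice, into adult life, and they differ along the long axis of the hippocampus. The members belong to several families. Sema3e is a secreted guidance cue that signals through the receptor Plxnd1. Kitl is the ligand of the receptor tyrosine kinase Kit, and Wnt9a is a secreted Wnt ligand. Col6a1 is a chain of collagen VI, and Fbln2 is a glycoprotein of the extracellular matrix. Cdh7 is a type II cadherin that mediates adhesion between cells, and Tspan18 is a tetraspanin of the cell membrane. Onecut1 is a transcription factor with a cut domain and a homeodomain. Gm4128 is annotated as an antisense RNA.

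The 9 genes lay on 7 chromosomes of the mouse genome build GRCm38, and only Sema3e and Gm4128 were neighbours. Sema3e spanned chr5:14025276-14256689 on the plus strand, and Gm4128 spanned chr5:14056438-14074157 on the minus strand, inside Sema3e. Whether counting used strand is not given in the sources used here, so reads of this overlap cannot be told apart and the 2 counts are uncertain with respect to each other. Onecut1 (chr9:74861921-74891781) overlapped Gm20649, a gene on the same strand that had no row in the count tables. Promoters of 7 of the 9 members were matched by symbol in the RefSeq promoter table for GRCm38.p6, which gives 250 bases before and 50 bases after each annotated start; Gm4128 and Tspan18 had no entry. Promoters of 2 members with more RNA in the KO library and 2 with less are shown, with capitals marking each E-box (CANNTG, searched on both strands), the motif of basic helix-loop-helix factors such as Neurod1.

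Col6a1 promoter (chr10:76725995-76726294, minus strand): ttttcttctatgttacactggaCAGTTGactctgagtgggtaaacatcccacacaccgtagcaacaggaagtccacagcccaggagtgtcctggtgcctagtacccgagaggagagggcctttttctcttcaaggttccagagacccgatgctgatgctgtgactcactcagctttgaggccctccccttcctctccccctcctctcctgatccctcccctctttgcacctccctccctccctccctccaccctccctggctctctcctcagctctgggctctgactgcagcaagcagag
Sema3e promoter (chr5:14025026-14025325, plus strand): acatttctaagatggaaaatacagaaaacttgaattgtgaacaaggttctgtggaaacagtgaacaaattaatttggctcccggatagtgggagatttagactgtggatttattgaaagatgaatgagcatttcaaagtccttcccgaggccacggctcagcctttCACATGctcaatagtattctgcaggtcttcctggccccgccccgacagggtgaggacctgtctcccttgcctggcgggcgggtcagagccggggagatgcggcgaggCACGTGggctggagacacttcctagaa
Kitl promoter (chr10:100015571-100015870, plus strand): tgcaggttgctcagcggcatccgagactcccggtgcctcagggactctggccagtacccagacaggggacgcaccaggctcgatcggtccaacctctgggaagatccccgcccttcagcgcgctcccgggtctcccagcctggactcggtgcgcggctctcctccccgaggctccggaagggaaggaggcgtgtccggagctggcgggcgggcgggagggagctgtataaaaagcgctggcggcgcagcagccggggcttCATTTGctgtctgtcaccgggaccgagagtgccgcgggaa
Onecut1 promoter (chr9:74861671-74861970, plus strand): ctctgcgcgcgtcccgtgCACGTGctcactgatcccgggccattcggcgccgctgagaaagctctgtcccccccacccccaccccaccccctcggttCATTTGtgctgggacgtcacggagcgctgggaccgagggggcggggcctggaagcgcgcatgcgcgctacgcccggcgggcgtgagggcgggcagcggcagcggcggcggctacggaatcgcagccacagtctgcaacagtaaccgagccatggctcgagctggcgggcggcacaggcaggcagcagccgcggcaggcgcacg

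Every one of the 9 promoter windows of the 7 matched members held 1 to 3 E-boxes, in a table where 72.3% of 32851 promoters held at least 1. None of the 9 windows held the Onecut core letters ATCGAT or ATTGAT on either strand, which 8.4% of all promoters held. GC content ran from 49.7% to 83.3% over these windows, against a median of 52.7% over all promoters. These matches describe letters and not binding.

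The libraries held 85678909 UMIs in 26212 barcodes (KO) and 106861726 UMIs in 25238 barcodes (5XFAD). Granule nuclei of the KO library had a median of 4066 UMIs and those of the 5XFAD library 5745 UMIs, and no barcode of the gate was shared between the libraries. Of the gate's own genes, Prox1 stood at 382.8 CPM (UMIs of the gene per 1000000 UMIs of the same nuclei) in KO and 359.0 CPM in 5XFAD, Glis3 at 894.8 and 930.5 CPM, and C1ql2 at 107.0 and 43.93 CPM, with KO first in each pair. Of the gated nuclei, 378 of 452 in KO and 391 of 435 in 5XFAD fell in 2 clusters that were named granule-like from their markers. The other gated nuclei lay in clusters with other or mixed markers. The gate kept 9.25% of the 4087 granule-like nuclei of KO and 26.5% of the 1474 of 5XFAD. All granule-like nuclei had a median of 1970 UMIs in KO and 3436.5 UMIs in 5XFAD, below that of the gated nuclei. The gated nuclei are thus a deeper part of the granule-like nuclei, and a smaller part in KO.

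Col6a1, Gm4128, Cdh7, Fbln2 and Sema3e had more RNA in granule nuclei of the KO library, and Wnt9a, Kitl, Tspan18 and Onecut1 had less. Of the members, 5 of 5 in the first group and 4 of 4 in the second passed a 1.5-fold difference with an interval off 1. Of 12542 genes with at least 20 UMIs in granule nuclei, 10.4% did so in either direction, 7.55% higher and 2.81% lower in KO. The members were chosen for this contrast, so the share is given beside them and nothing is read from it. The median ratio over all those genes was 1.08.

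Among the members with more RNA in KO, Col6a1 had 100 UMIs in KO granule nuclei (45.35 CPM) and 6 in 5XFAD granule nuclei (2.161 CPM), a ratio of 21.0 (interval 9.31 to 58.6). It was found in 17.7% of KO granule nuclei and 1.38% of 5XFAD granule nuclei. Sema3e had 201 UMIs in KO (91.16 CPM) and 33 in 5XFAD (11.88 CPM), a ratio of 7.67 (5.29 to 11.4). Cdh7 had 66 UMIs in KO and 5 in 5XFAD, a ratio of 16.6 (6.78 to 52.9). Sema3e was found in 28.1% of KO and 6.21% of 5XFAD granule nuclei. Fbln2 had 51 UMIs in KO and 5 in 5XFAD, a ratio of 12.8 (5.16 to 41.2). Gm4128 had 32 UMIs in KO and 4 in 5XFAD, a ratio of 10.1 (3.57 to 39.2), so the antisense gene was higher in the same library as Sema3e.

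Among the members with less RNA in KO, Tspan18 had 42 UMIs in KO granule nuclei (19.05 CPM) and 183 in 5XFAD granule nuclei (65.9 CPM), a ratio of 0.289 (0.202 to 0.406). Kitl had 39 UMIs in KO (17.69 CPM) and 143 in 5XFAD (51.49 CPM), a ratio of 0.344 (0.235 to 0.492). Both ligand and tetraspanin were found in more 5XFAD nuclei: Kitl in 6.19% of KO and 23.2% of 5XFAD nuclei, Tspan18 in 6.42% of KO and 33.3% of 5XFAD nuclei. Onecut1 had 12 UMIs in KO and 65 in 5XFAD, a ratio of 0.233 (0.114 to 0.434). Wnt9a had 5 UMIs in KO and 48 in 5XFAD, a ratio of 0.131 (0.0408 to 0.328).

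Shares depend on depth, and the 5XFAD nuclei were deeper. With every nucleus thinned to 2000 UMIs, which left 444 KO nuclei and 433 5XFAD nuclei and removed 8 and 2 shallower ones, Col6a1 was found in 9.46% of KO and 0.462% of 5XFAD nuclei, Sema3e in 13.7% and 2.54%, Kitl in 1.8% and 10.6%, and Tspan18 in 2.48% and 13.4%. Each of these 4 members kept its direction.

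Just outside the gate, at 6 or 7 granule marker UMIs, the 272 KO nuclei held 66.96 CPM of Col6a1 and 14.42 CPM of Tspan18, and the 141 5XFAD nuclei held 4.614 CPM of Col6a1 and 49.22 CPM of Tspan18. Just inside it, at 8 or 9 UMIs, the 184 KO nuclei held 45.48 CPM of Col6a1 and 14.21 CPM of Tspan18, and the 106 5XFAD nuclei 2.054 CPM of Col6a1 and 55.45 CPM of Tspan18.

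**Figure D1:**
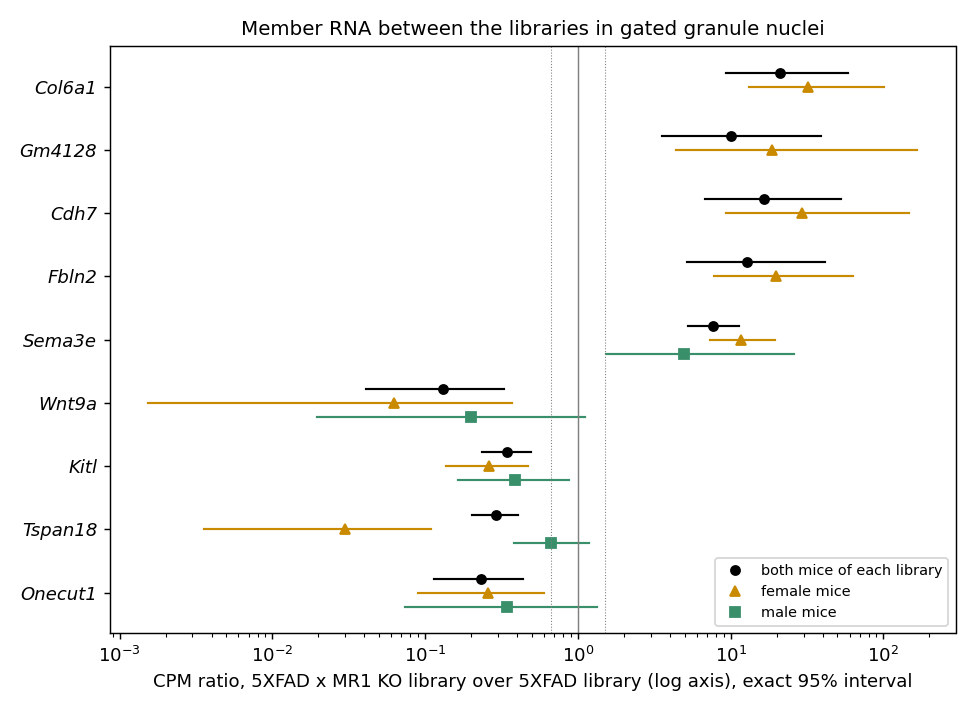
Ratio of each member's CPM in granule nuclei of the 5XFAD x MR1 KO library over the 5XFAD library on a log axis, with exact 95% intervals, for both mice of each library, the female mice and the male mice; a ratio with 0 UMIs on either side is not drawn. Col6a1 to Sema3e lie right of 1 and Wnt9a to Onecut1 left of it when both mice are pooled, while the male intervals of Wnt9a (0.0197 to 1.11), Tspan18 (0.379 to 1.18) and Onecut1 (0.0733 to 1.34) hold 1.

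The RNA of each nucleus allowed it to be assigned to the female or the male mouse of its library: at least 2 UMIs of Xist and none of 4 Y-linked genes, or at least 1 Y-linked UMI and no Xist. In KO this gave 219 female and 117 male granule nuclei, with 116 assigned to neither; in 5XFAD it gave 353 female, 45 male and 37 neither. After doublet removal, 53 gated KO nuclei (11.7%) and 27 gated 5XFAD nuclei (6.21%) held both Xist and Y-linked UMIs. Their RNA can come from both mice, which can raise co-detection, and they were kept except where stated. The 2 KO mice differed from each other in several members, as the next values show.

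Fbln2 had 45 UMIs in the KO female (46.18 CPM) and 0 in the KO male, against 5 UMIs in the 5XFAD female and 0 in the 5XFAD male. Tspan18 had 2 UMIs in the KO female (2.052 CPM) and 29 in the KO male (54.65 CPM), against 68.55 CPM in the 5XFAD female and 81.95 CPM in the 5XFAD male. The KO male thus lay near the 5XFAD mice in Tspan18, and the KO female stood apart. The ratio of the male KO mouse over the male 5XFAD mouse was 0.667 (0.379 to 1.18), and that of the female KO mouse over the female 5XFAD mouse was 0.0299 (0.00359 to 0.11).

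Col6a1 stood at 74.92 CPM in the KO female and 16.96 CPM in the KO male, against 2.348 CPM in the 5XFAD female and 0 CPM in the 5XFAD male. Cdh7 stood at 41.05 CPM in the KO female and 7.538 CPM in the KO male, against 1.409 and 0 CPM in the 5XFAD female and male. Sema3e stood at 114.9 and 47.11 CPM in the KO female and male, against 9.86 and 9.456 CPM in the 5XFAD female and male. Its RNA was higher in both KO mice than in either 5XFAD mouse, and the male ratio was 4.98 (1.52 to 25.8). Gm4128 stood at 17.45 and 13.19 CPM in the KO female and male and at 0.939 and 0 CPM in the 5XFAD female and male.

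Kitl stood at 13.34 CPM in the KO female and 20.73 CPM in the KO male, against 50.71 and 53.58 CPM in the 5XFAD female and male. Onecut1 stood at 6.157 and 7.538 CPM in the KO female and male, against 23.95 and 22.06 CPM in the 5XFAD mice. Wnt9a stood at 1.026 and 3.769 CPM in the KO female and male, against 16.43 and 18.91 CPM in the 5XFAD mice. The values of these 3 members were lower in each KO mouse than in each 5XFAD mouse. Between the male mice, 2 of the 9 members passed the 1.5-fold call, Sema3e and Kitl, with 45 nuclei on the 5XFAD side.

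**Figure D2:**
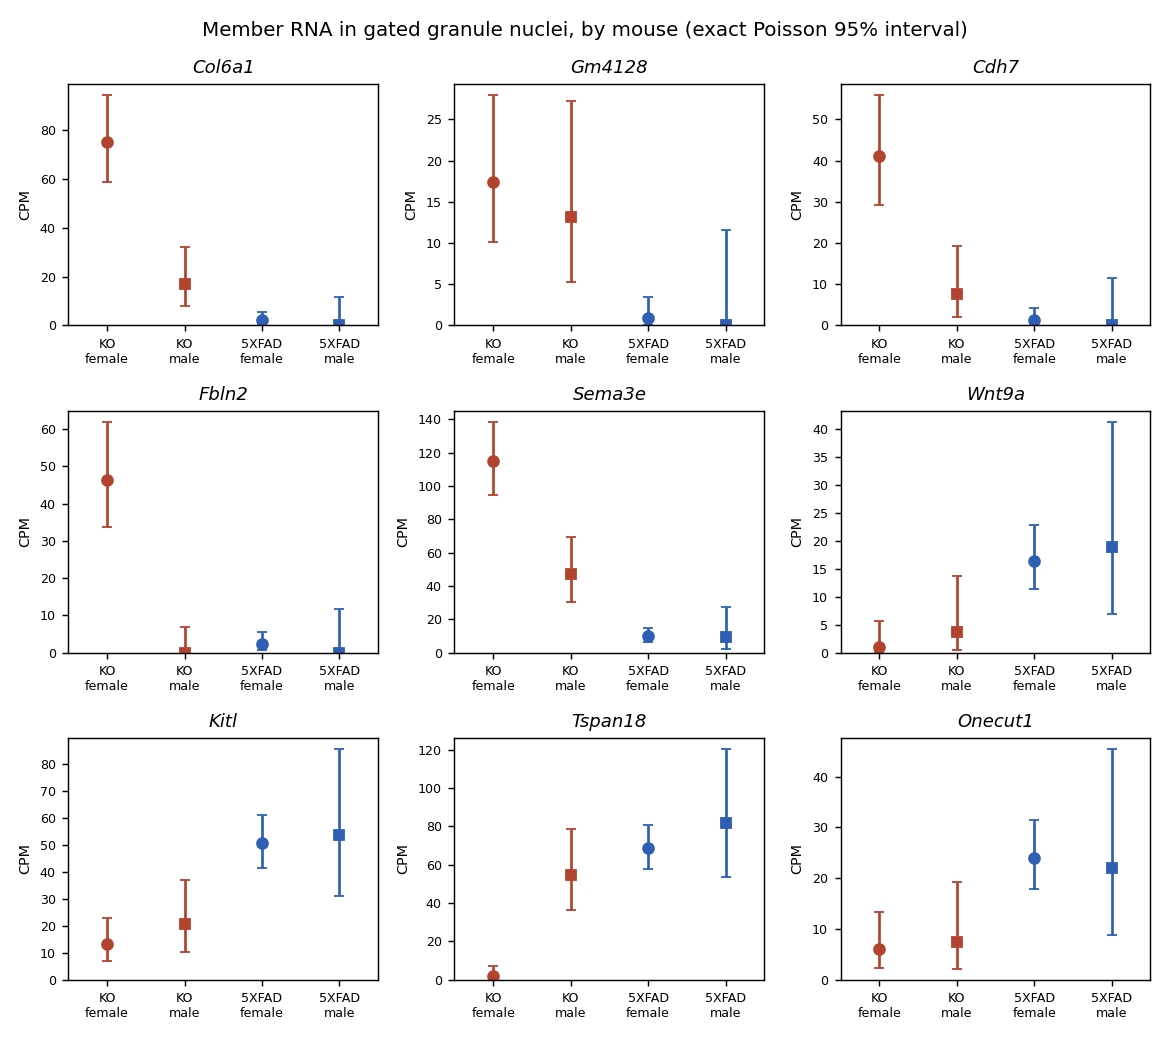
CPM of each member in gated granule nuclei of the KO female, KO male, 5XFAD female and 5XFAD male mouse, with exact 95% Poisson intervals; circles are female and squares male. Fbln2 is at 46.18 CPM in the KO female and 0 in the KO male, and Tspan18 is at 2.052 and 54.65 CPM in the same mice.

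The granule-like clusters divided by mouse as well. Cluster c1 held 94.4% of the granule-like nuclei of the KO female and 45.1% of those of the KO male, against 17.9% in the 5XFAD female and 20.6% in the 5XFAD male; cluster c2 held the others. The clusters were built on both libraries without batch correction and on many genes, so members can have shaped them. Within c2 alone, gated KO nuclei held 24.25 CPM of Col6a1, 44.68 CPM of Sema3e, 24.25 CPM of Kitl and 45.95 CPM of Tspan18. Gated 5XFAD nuclei of c2 held 1.324 CPM of Col6a1, 8.387 CPM of Sema3e, 52.97 CPM of Kitl and 70.18 CPM of Tspan18. The part that the mouse or the cluster has in the difference between libraries was not tested. Granule-like nuclei made up 23.3% of the KO female's nuclei and 24.8% of the KO male's, and 22.4% of the 5XFAD female's and 3.8% of the 5XFAD male's.

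Whether the members mark separate nuclei was read from pairs of genes. For each pair, the number of nuclei with both was divided by the number expected if the genes were independent among nuclei of like depth, in 10 depth classes per library. A pair was called together at 1.5 times expected or more and apart at 0.667 times or less, with the interval off 1, where at least 5 nuclei were expected. Of 36 pairs, 13 could be read in KO, of which 2 were together and 0 apart, and 8 in 5XFAD, of which 0 were either. Among all gene pairs found as often as the members, 0.536% were together and 0.228% apart in KO, and 0.471% together and 0.26% apart in 5XFAD. With the expectation set within each mouse, 10 pairs could be read in KO, of which 1 was together and 0 apart, beside 0.562% together and 0.198% apart among all such pairs. All 452 gated KO nuclei were counted here, and the 116 assigned to neither mouse can still mix both mice.

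Gm4128 and Sema3e were found together in 21 KO nuclei against 10.0 expected, a ratio of 2.1 (1.3 to 3.2), and they are the 2 genes that overlap. Col6a1 and Cdh7 were found together in 18 KO nuclei against 10.5 expected, 1.71 (1.01 to 2.71). The Col6a1 and Cdh7 ratio was 0.831 (0.101 to 3.0) after thinning to 2000 UMIs, with 2.41 nuclei expected, 1.21 (0.627 to 2.12) in nuclei of the KO female and 1.46 (0.868 to 2.31) with the expectation set within mice, and none of these was called. In the gated nuclei of granule-like clusters 9 nuclei held both against 5.61 expected, 1.6 (0.733 to 3.04), and the ratio was not called. Without nuclei that held both Xist and Y-linked UMIs it was 1.67 (0.86 to 2.91) and was not called. It was called together at 1.81 (1.21 to 2.6) with at least 5 granule marker UMIs and at 1.5 (1.03 to 2.11) with doublets kept. In all nuclei of the granule-like clusters within mice it was 1.53 (1.16 to 1.99) and was called together. Col6a1 with Sema3e (32 nuclei against 23.4 expected) was not called, nor was Fbln2 with Sema3e, in 19 nuclei at a ratio of 1.59 (0.955 to 2.48).

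Pairs across the 2 groups were few. Col6a1 was found with Kitl in 2 KO nuclei against 5.64 expected, 0.355 (0.043 to 1.28), and with Tspan18 in 2 nuclei against 5.51 expected; neither was called apart. In the 5XFAD library Kitl and Tspan18 shared 39 nuclei against 37.8 expected, 1.03 (0.733 to 1.41), and Tspan18 and Onecut1 shared 20 against 20.2. Kitl and Tspan18 shared 7 KO nuclei against 2.53 expected, 2.76 (1.11 to 5.7), under the minimum of 5 expected. No pair in the gate of either library was called apart. Of the pairs across the groups, 5 had enough nuclei to be read in KO and 2 in 5XFAD, with 5.04 to 10.3 nuclei expected, so that separation of moderate size was not detectable at this depth.

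**Figure D3:**
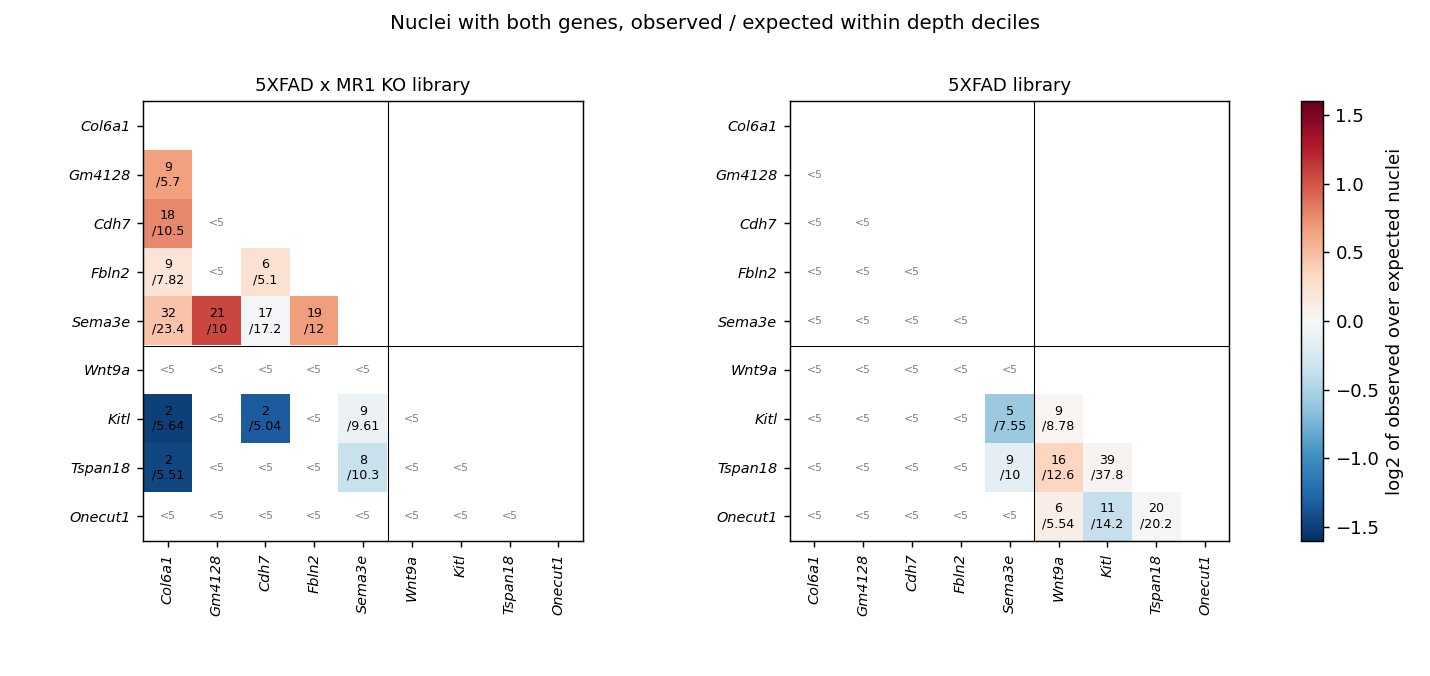
Observed over expected number of granule nuclei with both genes of a pair, on a log2 colour scale, in the 5XFAD x MR1 KO library (left) and the 5XFAD library (right); each cell gives observed / expected nuclei, and <5 marks pairs with under 5 expected. The highest KO cell is Gm4128 with Sema3e (21 of 10.0 expected) and the lowest is Col6a1 with Kitl (2 of 5.64), and in 5XFAD Kitl with Tspan18 is at 39 of 37.8.

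As groups, the 5 members higher in KO and the 4 lower in KO were both found in 23 KO nuclei against 34.3 expected, a ratio of 0.67 (0.425 to 1.01), and in 24 5XFAD nuclei against 25.2 expected, 0.954 (0.611 to 1.42). The larger granule-like clusters gave 67 against 101 expected in KO, 0.662 (0.513 to 0.841), which met the same criterion for apart, and 39 against 49.9 in 5XFAD, 0.781 (0.555 to 1.07). When the expectation was set within each mouse, the KO values moved to 0.858 (0.544 to 1.29) in gated nuclei and to 0.879 (0.681 to 1.12) in the clusters, and neither was called. These values include nuclei assigned to neither mouse, 116 in the gate and 1199 in the clusters, so mixing of the mice was not fully removed. The gated KO value moved the other way to 0.278 (0.0336 to 1.0) after thinning to 2000 UMIs, with 2 nuclei against 7.2 expected, and to 0.202 (0.00511 to 1.12) with detection at 2 UMIs, with 1 nucleus against 4.95 expected. It was called apart at 0.584 (0.334 to 0.949) without nuclei that held both Xist and Y-linked UMIs and at 0.661 (0.419 to 0.993) with no mitochondrial limit. Within the KO female's granule-like nuclei the ratio was 1.02 (0.689 to 1.46), and within the KO male's it was 0.822 (0.515 to 1.24).

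The granule-like clusters hold more nuclei and allowed 20 pairs in KO, of which 2 were together and 1 apart, and 9 in 5XFAD, of which 0 were either. Among all gene pairs found as often as the members there, 1.01% were together and 0.833% apart in KO, and 0.751% together and 0.637% apart in 5XFAD. The pair called apart was Col6a1 with Tspan18, with 5 KO nuclei against 19.5 expected, 0.256 (0.0831 to 0.598). With the expectation set within mice it was 0.418 (0.136 to 0.974) and was again called apart. The KO nuclei assigned to neither mouse were part of that expectation, so mixing of the mice was not fully removed. In cluster c2 alone, 0 KO nuclei held both Col6a1 and Tspan18 against 5.14 expected, and in c1, where the interval held 1, 5 held both against 5.5 expected. Of the 17 KO pairs read within mice in these clusters 3 were together and 1 apart, beside 1.12% and 0.739% among all such pairs. The 3 were Col6a1 with Cdh7, Gm4128 with Sema3e at 1.88 (1.42 to 2.44), and Kitl with Tspan18. Kitl and Tspan18 shared 13 nuclei against 5.41 expected, 2.4 (1.28 to 4.11). In 5XFAD the same pair was at 1.08 (0.828 to 1.4) and was not called. Of KO granule nuclei in the gate, 43.8% held RNA of the higher group only, 8.85% of the lower group only, 5.09% of both and 42.3% of no member; of 5XFAD granule nuclei 4.14% held the higher group only, 51.5% the lower group only, 5.52% both and 38.9% none.

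**Figure D4:**
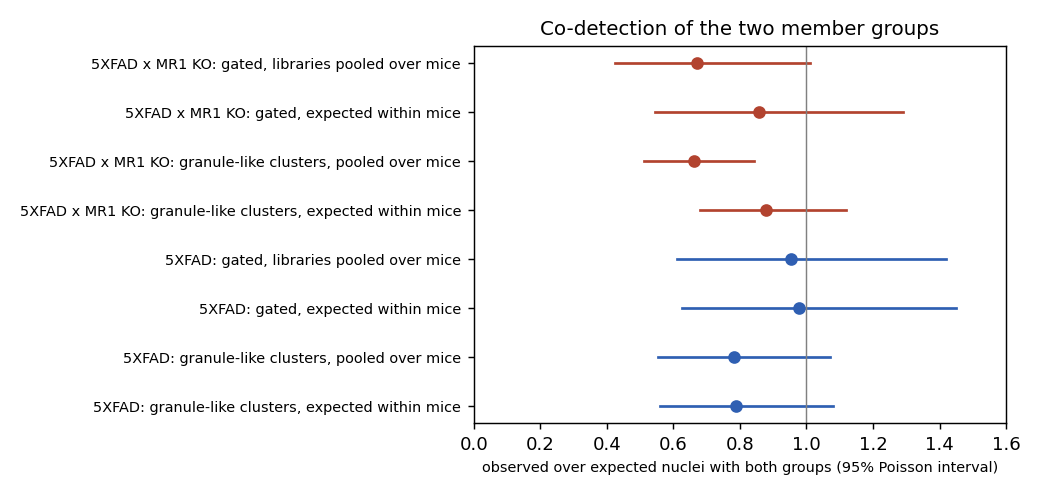
Observed over expected number of nuclei with RNA of at least 1 member of each group, with 95% Poisson intervals, by library and by how the expectation was set. The KO granule-like clusters lie at 0.662 pooled over mice and at 0.879 within mice, and the 5XFAD gated nuclei at 0.954 and 0.977.

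By the rule for genes found with a member in both libraries, Sema3e was followed by Ube2j2, Stam2 and Npas2, and Kitl by Scn9a, Trappc12 and Ppp1cc. Ube2j2, first of 3180 candidates, shared 29 KO nuclei with Sema3e at a ratio of 1.45 (0.973 to 2.09) and 10 5XFAD nuclei at 1.59 (0.762 to 2.92). Scn9a, first of 2662 candidates, shared 12 KO nuclei with Kitl at 1.77 (0.913 to 3.09) and 40 5XFAD nuclei at 1.45 (1.04 to 1.97). Tspan18 was followed by Kdm5d, a Y-linked gene, Bri3bp and Dhx33; Kdm5d, first of 2542 candidates, shared 10 KO nuclei with it at 1.99 (0.956 to 3.67) and 14 5XFAD nuclei at 1.34 (0.735 to 2.25). The intervals of Ube2j2 and Kdm5d held 1 in both libraries, and the first of so many candidates is high by selection. Onecut1 was followed by Ndrg4, Dpm1 and Rasgef1a. The other 5 members had too few nuclei for this measure.

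Across the other cell types, Onecut1 was the only member higher in granule nuclei than in every named class of both libraries. It stood at 5.443 CPM in KO and 23.41 CPM in 5XFAD granule nuclei, and no named class passed 0.9171 CPM in KO or 1.848 CPM in 5XFAD. In 5XFAD, Wnt9a (17.28 CPM in granule nuclei, 7.068 in the next named class) and Tspan18 (65.9 CPM, 57.26 in CA2/CA3 pyramidal neurons) also led the 8 named classes. Fbln2 led the 12 named classes of KO at 23.13 CPM, with inhibitory neurons next at 13.76 CPM. An unnamed cluster stood above granule nuclei for Wnt9a in 5XFAD (19.41 CPM) and for Fbln2 in KO (37.54 CPM).

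Sema3e and Gm4128 were highest among named classes in CA2/CA3 pyramidal neurons. Sema3e stood there at 254.6 CPM in KO and 208.8 CPM in 5XFAD, and Gm4128 at 61.69 and 58.81 CPM. Sema3e was thus higher in CA2/CA3 neurons than in granule nuclei of either library. Among named classes, Kitl was highest in endothelial cells of KO (161.6 CPM) and in striatal medium spiny neurons of 5XFAD (73.1 CPM), a cell type outside the hippocampus; the unnamed cluster c0 of 5XFAD stood at 79.83 CPM. The libraries rank different classes, since endothelial cells had 30 nuclei in 5XFAD and the striatal class 5 in KO, both under the minimum of 50. Cdh7 was highest among named classes in Cajal-Retzius cells of KO (106.8 CPM, from 7 UMIs) and in the striatal class of 5XFAD (107.8 CPM), below the unnamed clusters c7 in KO (152.3 CPM) and c9 in 5XFAD (126.7 CPM). Col6a1 was highest among named classes in vascular leptomeningeal cells of KO (57.84 CPM) and in striatal neurons of 5XFAD (49.28 CPM), below the unnamed cluster c16 (125.3 CPM in KO and 58.76 CPM in 5XFAD).

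Free RNA gives low counts in nuclei that do not express a gene, so levels were set beside oligodendrocytes. Sema3e stood at 31.05 CPM in KO oligodendrocytes and 36.43 CPM in 5XFAD oligodendrocytes, above the 11.88 CPM of 5XFAD granule nuclei. Oligodendrocyte precursors stood at 111.5 CPM in KO and 131.3 CPM in 5XFAD, so the oligodendrocyte lineage is not shown to lack Sema3e. Oligodendrocytes were also shallower than granule nuclei, so their level is not a measured floor. Whether these counts are free RNA was not tested. Oligodendrocytes of 5XFAD also held 5.083 CPM of Cdh7, 5.083 CPM of Col6a1 and 4.235 CPM of Gm4128. In 5XFAD granule nuclei the values were lower, at 1.8, 2.161 and 1.44 CPM. These rest on 6, 6 and 5 UMIs in oligodendrocytes and 5, 6 and 4 in granule nuclei, too few to order the levels. Wnt9a stood at 2.268 CPM in KO granule nuclei (5 UMIs) and 2.07 CPM in KO oligodendrocytes (2 UMIs). In value, the low side of the ratio was thus below or near the oligodendrocyte level for these 5 members, with few UMIs in all but Sema3e. Shares of nuclei with a UMI of Tspan18 were 0.652% in KO and 0.999% in 5XFAD oligodendrocytes, at median depths of 963 and 1313 UMIs, against 6.42% and 33.3% in granule nuclei. Onecut1 had 0 UMIs in KO oligodendrocytes.

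Some members also differed between the libraries in other classes, and in differing directions. Tspan18 in CA2/CA3 neurons was not among them, at 62.4 CPM in KO and 57.26 CPM in 5XFAD. Its ratio there was 1.09, with an interval that held 1 (0.961 to 1.24). Sema3e in the same neurons had a ratio of 1.22 (1.14 to 1.3), and 1.71 (1.39 to 2.09) in subicular or cortical excitatory neurons. In the unnamed clusters c7 and c16, Sema3e had less RNA in KO, at ratios of 0.199 (0.109 to 0.396) and 0.217 (0.109 to 0.395).

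Col6a1 had a ratio of 1.31 (1.06 to 1.62) in CA2/CA3 neurons and 3.21 (1.18 to 10.9) in inhibitory neurons. Its RNA was also higher in KO in unnamed clusters, with 8.44 (5.17 to 14.5) in c9, 4.53 (1.76 to 16.7) in c7, 3.59 (1.79 to 7.57) in c12, 2.91 (1.05 to 9.25) in c5 and 2.13 (1.45 to 3.14) in c16. A higher Col6a1 level in KO was thus not limited to granule nuclei. Cdh7 had 0.877 (0.707 to 1.09) in inhibitory neurons, and Kitl had 3.37 (2.28 to 5.11) in inhibitory neurons and 0.252 (0.132 to 0.441) in subicular or cortical excitatory neurons. The members were selected for their ratio in granule nuclei, so a smaller ratio elsewhere is no sign of a difference particular to granule nuclei. These classes were not tested against the granule nuclei.

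**Figure D5:**
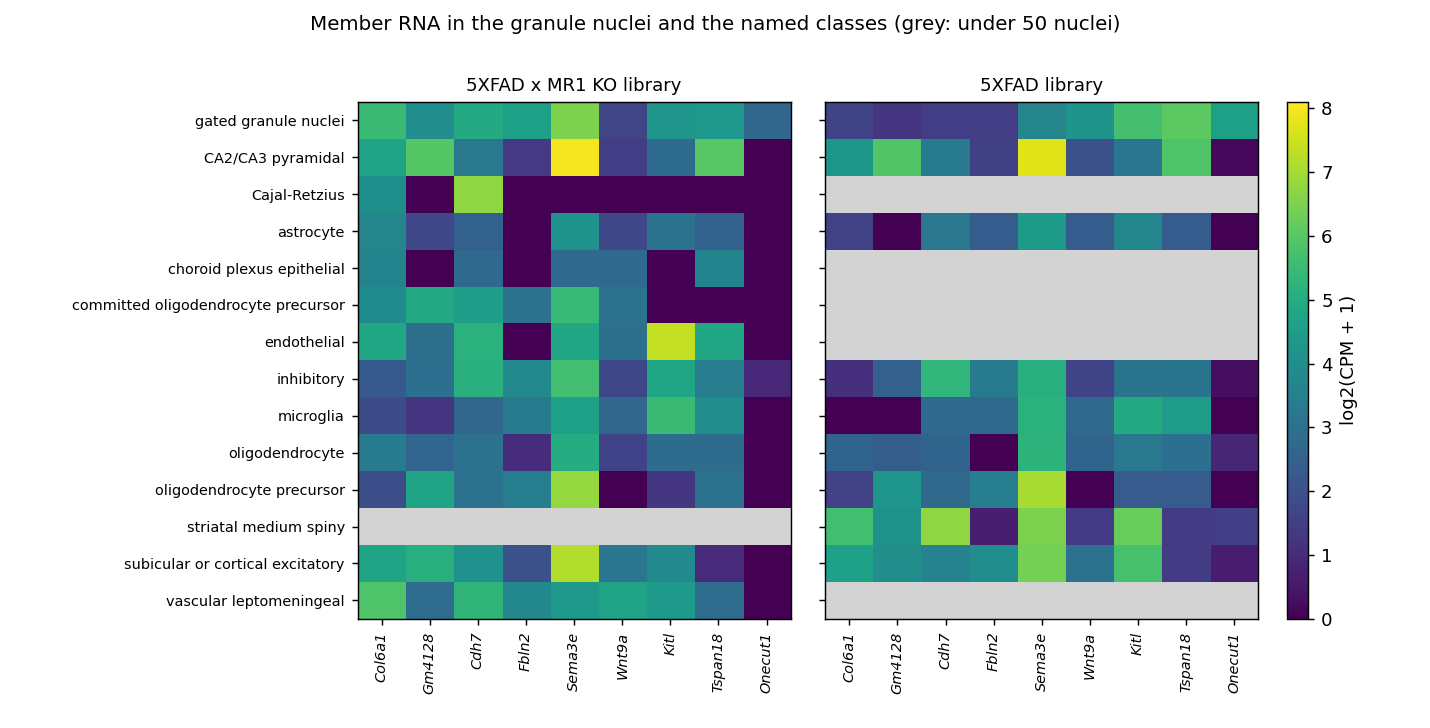
Level of each member as log2(CPM + 1) in gated granule nuclei and in named classes with at least 50 nuclei, in the 5XFAD x MR1 KO library (left) and the 5XFAD library (right); grey marks classes with under 50 nuclei in a library. Sema3e is brightest in CA2/CA3 pyramidal neurons (254.6 and 208.8 CPM), and Onecut1 is near 0 outside granule nuclei.

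Related genes from lists chosen with earlier results of these data known were read in the same nuclei. The counts of called genes below stand beside 7.55% called higher and 2.81% called lower in KO over all genes. Of 3 measured Sema3e receptor genes, Plxnd1 was higher in KO, with 17 UMIs in KO and 9 in 5XFAD and an interval that starts at 1.0, and 2 did not pass the call, with Nrp1 at a ratio of 0.891. Kit, the receptor of Kitl, had 16 UMIs in KO and 36 in 5XFAD, 0.56 (0.29 to 1.03), and was not called. Ror1, a receptor of Wnt ligands, was the 1 of 4 measured that was called, at 69.39 CPM in KO against 157.0 CPM in 5XFAD. Onecut2, the paralogue of Onecut1, was also lower in KO, 25.4 CPM against 39.97 CPM in 5XFAD; by mouse it stood at 17.45 CPM in the KO female and 41.46 CPM in the KO male, against 40.38 and 28.37 CPM in the 5XFAD female and male. Of 9 measured type II cadherins, Cdh18 (2.15) and Cdh20 (1.69) were higher, and of 2 measured fibulins Efemp1 was higher, with 80 UMIs in KO and 18 in 5XFAD. Col6a2, which pairs with Col6a1 in collagen VI, had 13 UMIs in KO and 4 in 5XFAD, under the minimum of 20 UMIs.

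Genes that vary along the long axis of the dentate gyrus differed in both directions. Of 10 measured, 5 were higher in KO, 1 was lower and 4 were not called, beside 7.55% higher and 2.81% lower over all genes, with a median log2 ratio of 0.55, against 0.11 over all genes. The list is not split by the end of the axis where a gene is higher, so the counts and the median give no position along it. Nr2f2, a nuclear receptor, had 61 UMIs in KO and 18 in 5XFAD, 4.27 (2.49 to 7.67). Trhr, the thyrotropin-releasing hormone receptor, had 55 UMIs in KO and 147 in 5XFAD, 0.471 (0.339 to 0.647). Trhr stood at 7.184 CPM in the KO female and 47.11 CPM in the KO male, against 55.87 and 28.37 CPM in the 5XFAD female and male. Gsg1l stood at 180.6 CPM in the KO female and 39.57 CPM in the KO male, against 74.18 and 50.43 CPM in the 5XFAD mice. Of the 4 mice, the KO female had the highest level of Gsg1l and also of Grp (82.1 CPM), Resp18 (80.05 CPM) and Spata13 (41.05 CPM). It was also highest, by small margins, in Efnb2 (21.55 CPM) and in Nr2f2 (23.6 CPM, with 20.73 CPM in the KO male). The same mouse had the lowest level of Trhr and, by small margins, of Lct (20.52 CPM) and Cpne7 (9.236 CPM). Cpne7 was nonetheless among the genes called higher in the KO library, at 1.78 (1.12 to 2.85).

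Of 6 measured genes of granule cell maturation, Dcx (3.21), Calb2 (3.96) and Sox11 (1.65) were higher in KO, and Tdo2 (0.42) was lower, beside the same shares over all genes. Dcx, expressed in immature neurons, had 74 UMIs in KO granule nuclei and 29 in 5XFAD granule nuclei. Of 6 measured activity-regulated genes, Bdnf (2.11) and Sorcs3 (2.21) were higher, and Egr1, with 10 UMIs in KO and 34 in 5XFAD, was lower. Over all genes, 7.55% were higher and 2.81% lower. Bdnf stood at 137.5 CPM in the KO female and 52.77 CPM in the KO male, against 47.89 and 47.28 CPM in the 5XFAD female and male. Sorcs3 stood at 265.8 CPM in the KO female and 64.07 CPM in the KO male, against 84.04 and 56.73 CPM in the 5XFAD female and male, so the KO female held the higher level of both genes. In KO nuclei Ror1 was found with members of the higher group in 30 nuclei against 46.1 expected, 0.65 (0.439 to 0.928), and with the lower group in 28 against 16.0, 1.75 (1.16 to 2.53). Gsg1l was found with the lower group in 12 KO nuclei against 24.6 expected, 0.488 (0.252 to 0.852), and Sorcs3 in 17 against 29.2, 0.583 (0.339 to 0.933). Dsp, a gene of the gate, was found with the higher group in 11 KO nuclei against 22.6 expected, 0.486 (0.243 to 0.869). In 5XFAD, Sorcs3 was together with the higher group at 2.01 (1.23 to 3.1), while Ror1 was at 0.788 with the higher and 1.1 with the lower group and Gsg1l at 0.857 with the lower group, and none of these 3 was called. Of all genes with at least 5 nuclei expected in KO, 0.0487% were together with and 0.0893% apart from the higher group, and 0.634% were together with and 0.427% apart from the lower group. In 5XFAD, 0.547% were together with and 0.0958% apart from the higher group, and 0% were together with and 0.0463% apart from the lower group. These expectations were set over both mice of a library, and the part of the mouse in them was not tested.

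Markers of other cell types in the gated nuclei differed between the libraries as well. Values summed over each list follow, with KO first in each pair. Choroid plexus markers stood at 741.5 and 178.6 CPM, of which Ttr was 707.5 and 144.4 CPM. Astrocyte markers stood at 720.2 and 1085 CPM, of which Slc4a4 was 335.6 and 593.4 CPM. Slc4a4 was also a leading gene of the granule-like cluster c2. Striatal markers stood at 489.8 and 673.0 CPM, of which Pde10a, not called, was 214.1 and 315.8 CPM. CA2/CA3 markers stood at 655.8 and 679.5 CPM. Of the other choroid plexus markers, Kl had a ratio of 0.81 and Htr2c of 0.978, and Clic6 and Otx2 were at 0 in both libraries. Folr1 went the same way as Ttr, with 5 UMIs in KO and 0 in 5XFAD, under the minimum of 20 UMIs. Of 8 measured astrocyte markers 3 were lower in KO and 5 were not called, with Gfap at a ratio of 1.32. Of 8 measured striatal markers 4 were lower in KO, 1 was higher (Drd1, 2.25 with an interval of 1.13 to 4.68) and 3 were not called. Over all genes, 2.81% were lower and 7.55% higher. The part of these markers in the members' ratios was not tested.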

How the data were processed

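Single-nucleus libraries were made with the 10x Genomics Chromium 3' v3.1 chemistry, per the labels' protocols. The deposited matrices hold raw UMI counts per gene and barcode, made with Cell Ranger 7.0.0, per the file headers; the build mm10 and Seurat are named in the submitters' processing notes, and no source used here states the annotation release, the strand setting or whether introns were counted. Barcodes with at least 500 genes and under 5% mitochondrial UMIs were kept, and doublets scored by Scrublet (scanpy 1.11.5) were removed at 0.8% per 1000 barcodes recovered. Both libraries were clustered together (2500 variable genes, 40 components, Leiden resolution 1.5), and a cluster was named where at least 3 markers stood among its top 50 genes and another class did not lead it. Ratios carry exact conditional binomial intervals, levels exact Poisson intervals and shares exact Clopper-Pearson intervals, at 95%. A gene was called at 1.5-fold with its interval off 1 and at least 20 UMIs. The statistics were tested on simulated data. The genes named were the members, the listed genes, and for each member the 3 genes with the highest co-detection ratio in the lower of the libraries. Members and lists were chosen with earlier results of these data known. Alternatives covered the gate, doublets, depth, mitochondrial limit, mouse and scaling (edgeR 4.0.16 TMM).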

Additional observations from a re-analysis of the deposited data

How the results depend on the processing

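The count of pairs called apart in both libraries and that of pairs called together in both libraries were 0 under every alternative run. In the KO library, 2 pairs were called together; this was 0 with at least 12 granule marker UMIs, after thinning to 2000 UMIs, with detection at 2 UMIs, and in each of the female and male nuclei alone. It was 1 without nuclei that held both Xist and Y-linked UMIs, with mitochondrial UMIs under 1%, with no mitochondrial limit, within depth quintiles of each mouse, with a 2-fold call and in gated nuclei of granule-like clusters. It was 3 with at least 5 granule marker UMIs and in all granule-like nuclei with expectations within mice. Pairs called apart in KO numbered 0 in the gate and 1 in all granule-like nuclei, with and without expectations within mice. The 9 members past 1.5-fold became 2 between the male mice and 4 for the male KO mouse over the female 5XFAD mouse. The count was 7 after thinning to 2000 UMIs. It was 8 with at least 12 granule marker UMIs, between the female mice and in gated nuclei of granule-like clusters. The Col6a1 and Cdh7 ratio was 0.831 after thinning, with 2.41 nuclei expected, and 0 in the male mice, with 0.174 expected, so no direction can be read from either, and the Fbln2 ratio became 0 for the male KO mouse over the female 5XFAD mouse. The cause was not tested. Other CPM ratios kept their direction, with 115 within counting error of the main value and 18 outside it. Among co-detection ratios 38 moved, 2 reversed and 293 did neither. Among shares of granule nuclei 74 moved and 160 did not. The crossed mice, the gated nuclei within granule-like clusters, the within-mouse clusters and the joint count of both groups were chosen after seeing the data. No paired analysis was possible because the groups share only 1 replicate number. The male 5XFAD mouse had 45 gated nuclei.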
